A study of Homo sapiens with 16 samples.

Results

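The syndecans (SDC1 to SDC4) and the glypicans (GPC1 to GPC6) are the membrane-bound heparan sulfate proteoglycans of the cell surface, and their transcript levels were followed here through the differentiation of human embryonic stem cells with activin A. The members were taken by symbol from the deposited value table. Each of the 10 genes had 1 probe set out of 18495, 9 of them with a single symbol, while the probe set of GPC1 also lists the microRNA gene MIR149. Levels are log2(intensity + 1), and values of different probe sets are not comparable as levels, so each gene was compared only with itself across days. The exception is the sums of marker intensities given below, which add different probe sets and weigh the brightest most. Among endoderm markers this was CER1, with mean log2 levels of 11.58 at day 0 and 14.56 at day 5.

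The differentiated cells were H9 cells, 1 human embryonic stem cell line, after 1, 3 or 5 days with activin A at 100 ng/ml. Activin A is a TGF-beta family ligand that drives these cells toward endoderm, and it was given in RPMI medium with rising serum. The day 0 cells were undifferentiated H9 cells, kept on mouse embryonic fibroblast feeders or on Matrigel in medium conditioned by fibroblasts, which held 8 ng/ml of basic FGF. Activin, medium, serum and time changed together and cannot be told apart. The biological samples numbered 3 for day 1, 3 for day 3, 4 for day 5 and 4 for day 0, measured on 16 Human Exon 1.0 ST arrays, because replicate 4 had a pair of technical replicate arrays at day 5 and at day 0, which were averaged. The labels number the biological replicates but do not say that they came from separate cultures, so p-values measure only the spread between these samples.

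A heparan sulfate proteoglycan is a core protein that carries long sulfated sugar chains. The chains bind growth factors such as FGFs, WNTs, hedgehogs and BMPs and present them to their receptors. Syndecans cross the membrane and reach the cytoskeleton and trafficking machinery with a short tail, whereas glypicans are held at the outer leaflet by a GPI anchor and can be released from it. In early embryos glypicans are known as modulators of WNT, hedgehog and BMP gradients.

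Medians of the arrays ran from 245.1 to 246.3 units. The sample labelled day 3 replicate 2 had a median correlation of 0.83 with its own day, and day 5 replicate 2 had 0.858, against 0.900 to 0.962 for the others. Definitive endoderm markers checked the day 5 label: 9 of 10 rose against day 0, and their summed intensity ran from 43180 to 57730 at day 5 and from 3358 to 7800 at day 0. Of 8 measured markers of undifferentiated cells 3 fell, with sums of 19220 to 41250 at day 5 and 46790 to 61910 at day 0. POU5F1, NANOG, SOX2 and TDGF1 were also listed but had no probe set with a single symbol, so they are not in these sums. In the undifferentiated markers all day 3 samples had sums of 30470 to 33850, below the day 0 range. The sample labelled day 3 replicate 2 was among these, but it went against its label in the endoderm and primitive streak markers. Its endoderm sum was 4308, inside the day 0 range, against 39480 and 45830 in the other day 3 samples. Its primitive streak sum was 2175, against 15910 and 14200 in the other day 3 samples, 13120 to 29670 at day 1 and 1510 to 2888 at day 0. At day 5 the streak sum was still 10840 to 19940, and of 8 streak markers 4 rose and 1 fell against day 0. At day 1 the endoderm sums were 9552 to 26320. The day 3 results of the members are therefore given with and without this sample.

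Promoter windows of SDC1 and SDC4 are shown for reference, from RefSeq on GRCh38.p14. Each holds 250 bases before and 50 after an annotated start, written 5′ to 3′ on the strand of the gene. Windows of 8 of the 10 members were used here, and none of SDC2 or GPC3. SDC1, the syndecan that fell by day 5, has 2 annotated starts in the table, on the minus strand of chromosome 2. Its windows are chr2:20225426-20225725 and chr2:20225081-20225380. SDC4, which was lower in all day 1 samples than in all day 0 samples without passing the test, has 1 window on the minus strand, chr20:45348375-45348674. Capitals mark the GC box GGGCGG, the letters bound by SP1-type factors, on either strand.
SDC1 upstream start: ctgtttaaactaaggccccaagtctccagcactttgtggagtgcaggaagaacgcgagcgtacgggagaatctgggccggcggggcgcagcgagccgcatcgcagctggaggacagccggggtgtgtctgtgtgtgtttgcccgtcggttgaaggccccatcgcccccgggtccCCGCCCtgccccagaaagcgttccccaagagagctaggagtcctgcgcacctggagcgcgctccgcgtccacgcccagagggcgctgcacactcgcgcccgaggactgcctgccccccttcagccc
SDC1 downstream start: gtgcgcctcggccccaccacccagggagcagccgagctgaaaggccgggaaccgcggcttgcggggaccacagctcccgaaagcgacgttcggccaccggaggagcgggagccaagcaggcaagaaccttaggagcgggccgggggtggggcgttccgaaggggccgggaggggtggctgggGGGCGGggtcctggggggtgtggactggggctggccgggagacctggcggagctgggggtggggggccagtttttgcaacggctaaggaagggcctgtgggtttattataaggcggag
SDC4: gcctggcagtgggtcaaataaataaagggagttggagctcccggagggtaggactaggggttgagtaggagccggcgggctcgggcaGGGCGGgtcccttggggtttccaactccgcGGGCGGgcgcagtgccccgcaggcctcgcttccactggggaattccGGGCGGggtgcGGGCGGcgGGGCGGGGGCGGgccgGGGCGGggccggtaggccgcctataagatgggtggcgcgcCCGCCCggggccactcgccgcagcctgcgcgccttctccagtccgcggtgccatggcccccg

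The GC box was found 1 time in each SDC1 window and 8 times in that of SDC4, and 44.9% of all 34796 RefSeq windows of this length hold at least 1 on either strand. On either strand the letters CAGACA, a form of the SMAD box, stand 1 time in the upstream SDC1 window, as the reverse complement TGTCTG. They stand in neither of the other printed windows, against 16.9% of all windows. TATAA was found on either strand, as 2 overlapping matches in the downstream SDC1 window and 1 match in the SDC4 window, against 20.5% of all windows. The SDC1 windows hold 27 and 23 CpG dinucleotides and the SDC4 window holds 33, where the median of all windows is 14. A match in these letters is a description and not a binding site.

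Because the GPC1 probe set also lists MIR149, which lies on the same strand of chromosome 2 at chr2:240456015-240456037 for the 5p arm and chr2:240456056-240456076 for the 3p arm (GRCh38.p14), both mature sequences are given with the seed, bases 2 to 8, in capitals. The arms have different seeds.
miR-149-5p: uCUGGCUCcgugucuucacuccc
miR-149-3p: aGGGAGGGacgggggcugugc

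Across the 4 days, 2 of the 10 members passed the moderated F test of limma at an adjusted p of 0.05, namely SDC1 (adjusted p 0.0154) and SDC2 (adjusted p 0.00725). Over all probe sets 3.73% passed. SDC4 had an adjusted p of 0.144 with all samples and 0.0446 without the sample labelled day 3 replicate 2, the only 1 of the 14 samples whose removal gave it the call. SDC3 had 0.92, and the 6 glypicans ranged from 0.881 for GPC3 to 0.987 for GPC6. The members past the test were both syndecans, but whether the families differ was not tested.

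**Figure D1:**
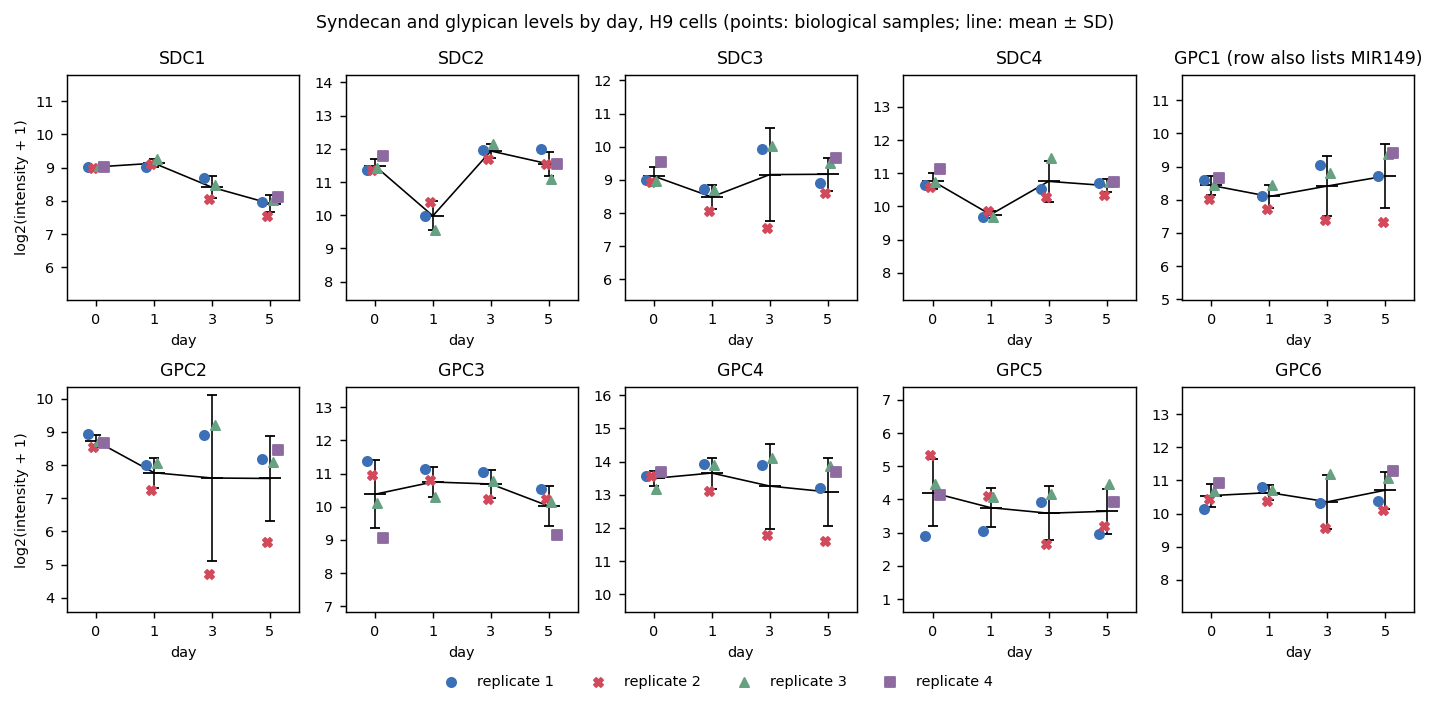
Levels of the 4 syndecans and 6 glypicans, as log2(intensity + 1) on the vertical axis, against the day of differentiation on the horizontal axis, where the 4 days are spaced evenly. Points are biological samples marked by replicate number, and the line joins day means with SD bars; each panel spans the same number of log2 units. SDC1 lay at 7.54 to 8.13 at day 5, below every day 0 sample, and SDC2 was lowest at day 1 with 9.54 to 10.41.

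SDC1, the syndecan of epithelial cells and of plasma cells, fell over the time course. Its log2 levels were 9.01, 9.004, 9.05 and 9.02 on day 0, 9.03, 9.10 and 9.28 on day 1, 8.69, 8.05 and 8.49 on day 3, and 7.98, 7.54, 8.03 and 8.13 on day 5. The day 0 samples lay within a few hundredths of each other, day 1 overlapped them, and every sample of days 3 and 5 was below every sample of days 0 and 1. SDC1 averaged 7.92 ± 0.26 at day 5 and 9.02 ± 0.02 at day 0 (SD, n = 4 each), a difference of -1.10 ± 0.21 on the log2 scale (SE, 95% confidence interval -1.55 to -0.66), or 2.15-fold lower.

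The adjusted p of that difference was 0.00732 in limma, and it stayed past the threshold in 27 of 27 alternatives, with differences of -1.17 to -0.97. At day 3 SDC1 differed from day 0 by -0.61 (adjusted p 0.386) and from day 1 by -0.73 (adjusted p 0.327), neither past the test although the groups did not overlap. Without day 3 replicate 2 these differences were -0.43 (adjusted p 0.417) and -0.54 (adjusted p 0.263). Day 1 differed from day 0 by 0.11 (adjusted p 1) and day 5 from day 3 by -0.49 (adjusted p 0.819). The order of the day means was therefore day 1, day 0, day 3 and day 5, and of neighbouring means days 1 and 0, and days 5 and 3, overlapped.

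In a bulk sample, fewer cells that carry a transcript and less transcript per cell cannot be told apart, which holds for SDC1 and for each result that follows. The summed level of the 8 undifferentiated markers was lower at day 5 together with SDC1, and its part in the SDC1 result was not tested.

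SDC2, a syndecan of mesenchymal and neural cells, had its lowest levels at day 1. Its log2 levels were 11.37, 11.38, 11.42 and 11.79 on day 0, 9.99, 10.41 and 9.54 on day 1, 11.96, 11.71 and 12.14 on day 3, and just over 12, 11.55, 11.09 and 11.53 on day 5. The 3 day 1 samples lay below all 11 others, while days 0, 3 and 5 overlapped each other. SDC2 averaged 11.94 ± 0.22 at day 3 and 9.98 ± 0.44 at day 1 (SD, n = 3 each), a rise of 1.96 ± 0.29 (SE, 95% confidence interval 1.33 to 2.58), or 3.88-fold, with an adjusted p of 0.0439 in limma.

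That call was close to the threshold. It was kept in 10 of 27 alternatives and lost, with adjusted p values of 0.0506 to 0.278, when any 1 of 12 samples was left out: each day 0 sample, each day 1 sample, day 3 replicates 1 and 3, and day 5 replicates 1, 2 and 4. Without day 3 replicate 2 the rise was 2.07 ± 0.31 (SE) with an adjusted p of 0.00605 in limma. The SE was not smaller than with all samples, but 2.73% of all probe sets then passed, against 0.0324%. An adjusted p depends on the other probe sets too, here and with any other sample left out. A limma fit of only days 1 and 3 gave an adjusted p of 0.757. The size of the rise was 1.73 to 2.17 over all alternatives. Many of these, such as leaving out a day 0 or day 5 sample, cannot change a difference between days 3 and 1.

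Against day 0, SDC2 at day 1 averaged 9.98 ± 0.44 (SD, n = 3), where day 0 had 11.49 ± 0.20 (SD, n = 4). The difference was -1.51 ± 0.27 (SE), with an adjusted p of 0.0918 in limma, and all day 1 samples lay below all day 0 samples. It passed at 0.044 without day 3 replicate 2, with the difference still -1.51 and an SE of 0.26. That sample is in neither group of this contrast. It enters through the estimates of spread and the adjustment over all probe sets. At day 3 SDC2 differed from day 0 by 0.45 (adjusted p 0.726), or 0.56 (adjusted p 0.452) without day 3 replicate 2, at day 5 by 0.05 (adjusted p 0.947, 95% confidence interval -0.49 to 0.60), and day 5 differed from day 3 by -0.39 (adjusted p 0.999).

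SDC4, the widely expressed syndecan of focal adhesions, had log2 levels of 10.64, 10.59, 10.72 and 11.13 on day 0, 9.69, 9.88 and 9.70 on day 1, 10.52, 10.30 and 11.46 on day 3, and 10.70, 10.34, 10.74 and 10.74 on day 5. All day 1 samples were below every sample of the other days, and those other days overlapped. SDC4 at day 1 differed from day 0 by -1.02 ± 0.28 (SE, adjusted p 0.299), which did not pass the test. At day 3 it differed from day 1 by 1.00 ± 0.30 (adjusted p 0.287), by 1.23 with an adjusted p of 0.0479 without day 3 replicate 2, and by 0.65 with an adjusted p of 0.638 without day 3 replicate 3.

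SDC3, the syndecan of the nervous system, had log2 levels of 8.99, 8.95, 8.98 and 9.54 on day 0, 8.72, 8.06 and 8.68 on day 1, 9.93, 7.54 and 10.01 on day 3, and 8.91, 8.60, 9.50 and 9.67 on day 5. Day 3 replicate 2 was the lowest of the 14 samples, and day 3 replicates 1 and 3 were the highest. SDC3 at day 1 was below every day 0 sample, with a difference of -0.63 ± 0.51 (SE, adjusted p 1). At day 3 it differed from day 1 by 0.67 (adjusted p 0.857) with all samples, and by 1.48 (adjusted p 0.0451) without day 3 replicate 2. Without day 3 replicate 1 or 3 it differed by 0.29 or 0.25 (adjusted p 0.928 each).

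At day 1 against day 0, 0 of the 10 members passed the test in limma, where 0.00541% of all probe sets did. Without adjustment 2 of the 10 members, SDC2 and SDC4, had a p under 0.05, as did 1116 of all probe sets. SDC2, SDC3, SDC4 and GPC2 had day 1 samples that all lay below the day 0 samples, 4 of 10 members, where 6.62% of all probe sets were separated this way. The median change of the 10 members was -0.39, against 0.03 over all probe sets.

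At day 3 against day 1, SDC2 was the 1 member past the test, where 0.0324% of all probe sets passed. SDC2 and SDC4 were separated upward, 2 of 10 members, against 5.11% of all probe sets. SDC1 was separated downward, 1 of 10, against 7.53%. At day 5 against day 3 no member passed in limma (0 of 10, where 0.0973% of all probe sets did), 1 had an unadjusted p under 0.05 (1107 probe sets over all), and no member was separated in either direction. The median change of the members was -0.11 at day 3 against day 1, and -0.07 at day 5 against day 3, where all probe sets had medians of -0.02 in each.

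Without the sample labelled day 3 replicate 2, which leaves 2 samples at day 3, SDC2, SDC3 and SDC4 passed at day 3 against day 1, 3 of 10 members, where 2.73% of all probe sets did. SDC2, SDC3, SDC4, GPC1 and GPC2 were then separated upward and SDC1 downward, where 19.9% and 22.7% of all probe sets were separated in those directions. At day 3 against day 0, 0 of 10 members passed in limma, where 3.19% of all probe sets did. SDC2, SDC3, GPC1 and GPC4 were separated upward and SDC1 downward in that comparison, against 14.9% and 17.4% of all probe sets. At day 5 against day 3, 0 of 10 passed (0.157% of all), and SDC1, SDC3, GPC2, GPC3 and GPC4 were separated downward, against 12.4% of all. The median change of the members was 0.59 at day 3 against day 1, 0.41 at day 3 against day 0 and -0.59 at day 5 against day 3, and that of all probe sets was -0.06, -0.03 and -0.01.

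**Figure D2:**
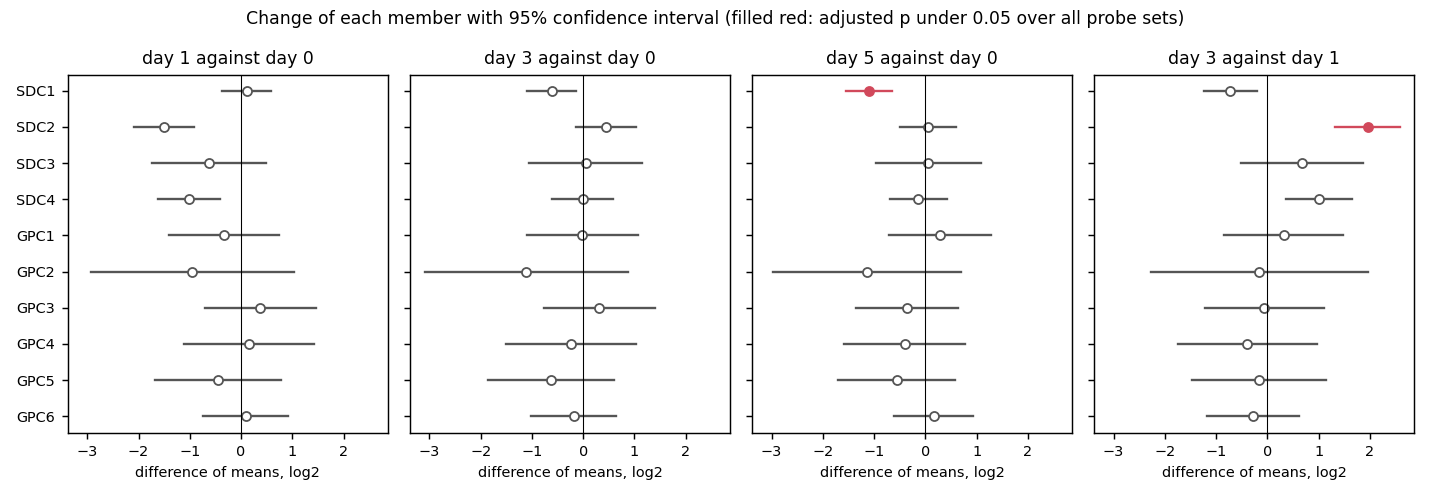
Difference of day means for each member, in log2 units on the horizontal axis, with 95% confidence intervals from limma, in 4 comparisons. Filled red points passed the test over all probe sets: SDC1 at day 5 against day 0 (-1.10) and SDC2 at day 3 against day 1 (1.96).

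At day 5 against day 0, SDC1 was the 1 member past the test, where 5.46% of all probe sets passed, 2.56% higher and 2.89% lower. SDC1 and GPC2 were separated downward, 2 of 10 members, where 8.57% of all probe sets were. At day 3 against day 0, 0 of 10 members passed in limma (0.0270% of all probe sets did), 1 had an unadjusted p under 0.05, as did 1584 probe sets over all, and SDC1 was the 1 member separated downward, against 6.55% of all. The median change of the members was -0.25 at day 5 and -0.10 at day 3, and that of all probe sets was -0.02 and -0.01.

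Among the glypicans, none passed the test against day 0. GPC4, which lies beside GPC3 on chromosome X with no protein-coding gene between them, had log2 levels of 13.56, 13.56, 13.17 and 13.69 on day 0, 13.94, 13.12 and 13.91 on day 1, 13.89, 11.79 and 14.11 on day 3, and 13.20, 11.60, 13.87 and 13.68 on day 5. Replicate 2 of days 3 and 5 lay below all other samples. Among the rest, days 0, 1 and 5 overlapped. Day 3 replicates 1 and 3 lay above all samples of days 0 and 5 and overlapped day 1. GPC4 differed from day 0 by 0.16 at day 1, -0.23 at day 3 and -0.41 ± 0.54 at day 5 (SE, adjusted p 0.78 at day 5). The differences at days 3 and 5 turned to 0.51 and 0.09 without day 3 replicate 2 and day 5 replicate 2.

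GPC3, the glypican whose loss causes an overgrowth syndrome in humans, had log2 levels of 11.37, 10.95, 10.12 and 9.06 on day 0, 11.15, 10.81 and 10.28 on day 1, 11.06, 10.22 and 10.78 on day 3, and 10.54, 10.23, 10.15 and 9.15 on day 5. Within-day SDs were 0.43 to 1.02, and the day means lay between 10.02 and 10.75. Replicate 1 had the highest GPC3 level on each of the 4 days, and replicate 4 had the lowest on both days on which there was one. GPC3 averaged 10.02 ± 0.60 at day 5 and 10.37 ± 1.02 at day 0 (SD, n = 4 each), a difference of -0.36 ± 0.46 (SE, adjusted p 0.774). With 1 sample left out this ran from -0.80 without day 0 replicate 4 to -0.0245 without day 0 replicate 1. At day 3 GPC3 differed from day 0 by 0.31, and by 0.54 without day 3 replicate 2.

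GPC2, a glypican of developing neurons, had log2 levels of 8.95, 8.55, 8.72 and 8.67 on day 0, 8.01, 7.24 and 8.05 on day 1, 8.91, 4.72 and 9.20 on day 3, and 8.17, 5.67, 8.09 and 8.45 on day 5. All samples of days 1 and 5 were below all day 0 samples, and at day 3 replicate 1 lay among the day 0 samples and replicate 3 above them, while replicate 2 was far below them. Its pooled within-day SD of 1.34 was the largest among the members. GPC2 differed from day 0 by -0.95 ± 0.92 at day 1 (SE, adjusted p 1) and by -1.13 ± 0.85 at day 5 (adjusted p 0.583). The day 5 difference was -0.49 without day 5 replicate 2 and ran from -1.42 to -0.49 over the samples left out. GPC2 differed at day 3 by -1.11 with all samples but 0.33 without day 3 replicate 2.

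GPC1, a glypican widely found in brain and muscle, had log2 levels of 8.61, 8.03, 8.44 and 8.65 on day 0, 8.13, 7.73 and 8.44 on day 1, 9.05, 7.39 and 8.80 on day 3, and 8.73, 7.34, 9.39 and 9.41 on day 5. At day 5 replicates 1, 3 and 4 were above all day 0 samples and replicate 2 was below them. The difference from day 0 was 0.28 ± 0.46 at day 5 (SE, adjusted p 0.824), with a range of 0.05 to 0.74 over the samples left out, and 0.74 with an adjusted p of 0.097 when replicate 2 of days 3 and 5 was left out. Since the probe set also lists MIR149, signal of the host gene and of the microRNA locus cannot be told apart.

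GPC5 and GPC6 lie side by side on chromosome 13 with no protein-coding gene between them. GPC6, needed for growth of the skeleton, had log2 levels of 10.13, 10.45, 10.68 and 10.92 on day 0, 10.81, 10.38 and 10.71 on day 1, 10.31, 9.57 and 11.18 on day 3, and 10.37, 10.11, 11.07 and 11.27 on day 5. All days overlapped, and the difference from day 0 was 0.16 ± 0.36 at day 5 (SE, adjusted p 0.871, 95% confidence interval -0.61 to 0.93). GPC5 was dim in all 14 samples, with log2 levels of 2.65 to 5.34 or 5.3 to 39.6 intensity units, and its day means differed from day 0 by -0.45, -0.62 and -0.56 at days 1, 3 and 5, none past the test (adjusted p 0.67 at day 5). Without day 3 replicate 2 the day 3 difference was -0.15.

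Replicate 2 was low for many of these genes. Day 3 replicate 2 had the lowest level of its day for 10 of 10 members, and 44.9% of all probe sets were lowest in that sample. Day 5 replicate 2 was lowest for 7 of 10 members, against 39.2% of all probe sets, and day 1 replicate 2 for 5 of 10, against 42.2%. Between the technical replicates the members differed by a median of 0.16 log2 units, and by 1.26 at most, in GPC5 at day 5.

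**Figure D3:**
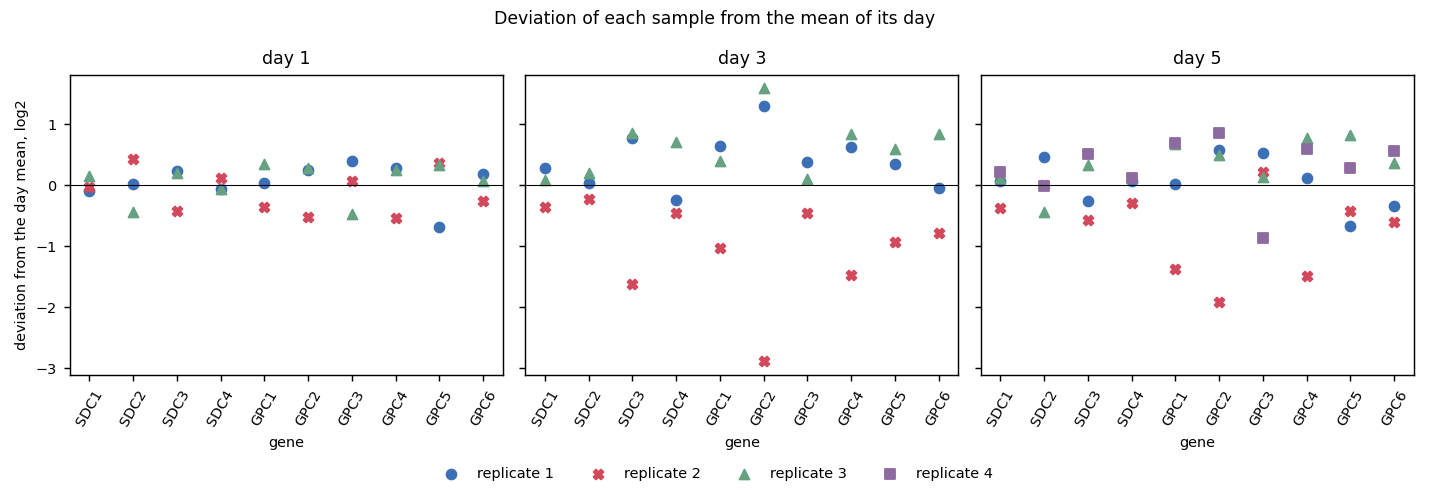
Deviation of each sample from the mean of its day, in log2 units on the vertical axis, for the 10 members on the horizontal axis, at days 1, 3 and 5. The crosses of replicate 2 are the lowest points of day 3 for 10 of 10 members and of day 5 for 7 of 10.

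The probe sets whose levels followed SDC1 and SDC2 most closely over the 14 samples are given as a description. For SDC1 these were SCAMP5, a secretory carrier membrane protein (Pearson r 0.959), the innate immune adaptor MYD88 (0.955) and the ubiquitin ligase ARIH2 (0.953). SCAMP5 had mean log2 levels of 9.85, 9.75, 9.10 and 8.51 at days 0, 1, 3 and 5. For SDC2 these were the small GTPase RRAS (0.950), the annexin ANXA1 (0.945) and the seryl-tRNA synthetase SARS1 (0.924). ANXA1 was, like SDC2, lowest at day 1, with mean log2 levels of 12.13, 9.78, 12.55 and 12.36 at days 0, 1, 3 and 5. These 6 were picked from all probe sets with a single symbol, and the points share samples and days.

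The chains of both families are built, edited and broken down with a shared set of genes, of which 39 of 48 were measured. At day 5 against day 0, 1 of the 39 rose and 1 fell, where 5.46% of all probe sets changed, and the median change of the 39 was -0.02, the same as over all probe sets. GLCE, the epimerase that turns glucuronic into iduronic acid, rose to 9.44 ± 0.70 at day 5, against 7.65 ± 0.45 at day 0 (SD, n = 4 each), a change of 1.79 (adjusted p 0.0148). NDST3, an N-deacetylase and N-sulfotransferase of the growing chain, fell to 3.79 ± 0.50 at day 5, against 5.21 ± 0.43 at day 0, a change of -1.41 (adjusted p 0.0174) that was lost at 0.066 without day 0 replicate 1. The number of these genes past the test was 1 without day 0 replicate 1 and 4 without day 3 replicate 2. The share of all probe sets past it in those fits is not given here.

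None of the 13 measured genes that supply sugars and build the linker passed, nor any of the 5 chain elongation genes. XYLT2, which starts the linker, differed by -0.80 (adjusted p 0.177), and EXTL3, which starts the chain, by -0.91 (adjusted p 0.26). Of 9 genes that edit or break down the chains, 0 passed at day 5. SULF2, an extracellular sulfatase that removes 6-O-sulfates, differed by 1.56 ± 0.61 (SE, adjusted p 0.193). Its relative SULF1 passed the F test over days (adjusted p 0.017), with means of 7.52, 8.95, 7.75 and 7.22 at days 0, 1, 3 and 5. At day 1 it differed from day 0 by 1.42 (adjusted p 0.107).

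Of 11 measured genes for other proteoglycans of the surface and matrix, 2 rose at day 5 and 0 fell, with a list median of -0.34. Of all probe sets 2.56% rose and 2.89% fell. SPOCK3, the secreted testican 3, rose to 7.31 ± 1.07 at day 5, against 4.42 ± 0.29 at day 0, a change of 2.89 (adjusted p 0.00195). NRP1, a co-receptor for VEGF and semaphorins, rose to 9.35 ± 0.63 at day 5, against 7.74 ± 0.12 at day 0, a change of 1.61 (adjusted p 0.0474). The NRP1 call was lost, at adjusted p values of 0.0623 to 0.125, without any 1 of the day 0 or day 1 samples or without day 5 replicate 1, 3 or 4. The hyaluronan receptor CD44 differed by -1.12 (adjusted p 0.221).

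Of 13 measured partners of the syndecan tail none passed at day 5, where 5.46% of all probe sets did, with a list median of -0.30. The kinase PRKCA, a partner of the SDC4 tail, differed by -0.80 (adjusted p 0.277), and the adaptor SDCBP, or syntenin, by 0.41 (adjusted p 0.659).

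Of 19 measured genes on a list for shedding and GPI anchors, 1 rose and 3 fell at day 5, with a median of -0.04. Of all probe sets 2.56% rose and 2.89% fell. Not every gene on the list sheds syndecans or acts on a GPI anchor, and it also holds TIMP3, FURIN, PCSK5 and PCSK6. NOTUM, a secreted hydrolase that removes the lipid of WNT proteins, rose to 7.83 ± 0.50 at day 5, against 4.48 ± 1.05 at day 0, a change of 3.35 (adjusted p 0.0128). MMP9, a gelatinase that can shed syndecans, fell to 6.01 ± 0.48 at day 5, against 8.33 ± 0.77 at day 0, a change of -2.32 (adjusted p 0.00516). GDPD2, a membrane phosphodiesterase, changed by -2.45 (adjusted p 0.00674). The membrane metalloproteinase MMP16 changed by -1.03 (adjusted p 0.0481), a call lost at adjusted p values of 0.0615 to 0.148 without any 1 of day 0 replicates 1, 2 and 4, day 1 replicate 1, day 3 replicates 1 and 3, and day 5 replicates 1, 2 and 3.

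**Figure D4:**
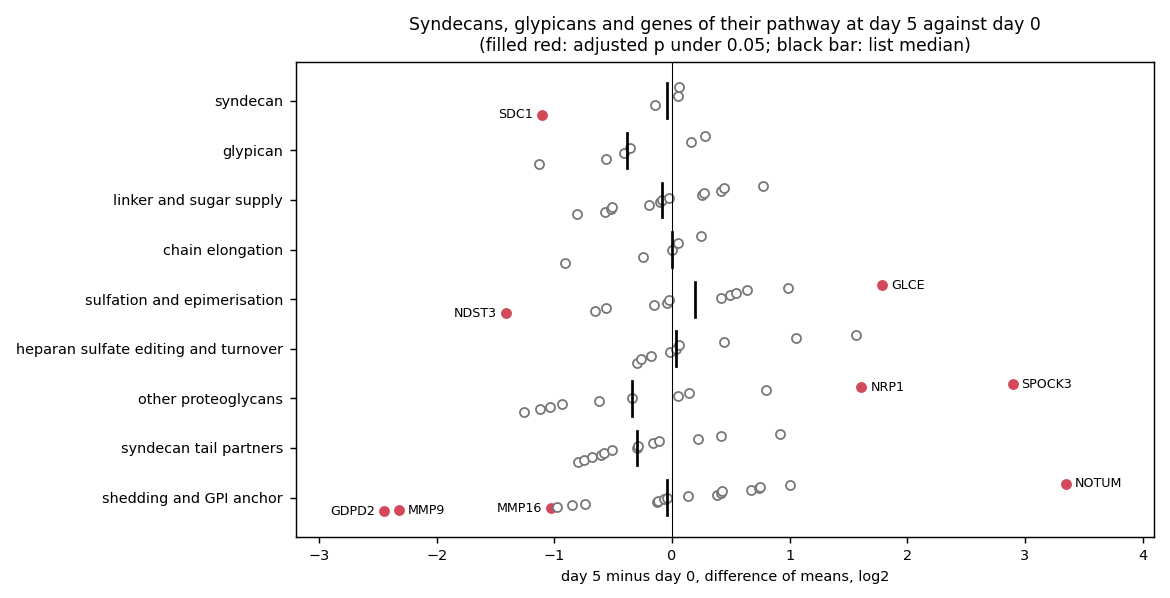
Change at day 5 against day 0, in log2 units on the horizontal axis, of the syndecans, the glypicans and the measured genes of their pathway, 1 row per list. Each point is a gene, filled red points passed the test over all probe sets, and black bars are list medians. GLCE, NRP1, SPOCK3 and NOTUM rose, and SDC1, NDST3, MMP9, GDPD2 and MMP16 fell.

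Markers of other cell types moved in part at day 5. Of 8 mesoderm markers HAND1 rose by 2.05 (adjusted p 0.0486) and KDR changed by -1.23 (adjusted p 0.0239), and their summed intensity was 1227 to 1781 at day 5 and 2219 to 2347 at day 0. Of 7 neuroectoderm markers PAX6 rose by 4.34 (adjusted p 0.000332), with sums of 1474 to 5295 at day 5 and 2755 to 7108 at day 0. Of 10 fibroblast markers LUM rose by 4.57 (adjusted p 0.00241), with sums of 1896 to 6431 at day 5 and 2414 to 6182 at day 0. These sums mostly follow their brightest markers. At day 0 these were KDR for mesoderm, NES for neuroectoderm and COL1A1 for fibroblast, with mean log2 levels of 10.70, 11.73 and 10.85. No marker was at or below 0 on any list, and the part of other cells in the syndecan results was not tested.

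At day 1, when SDC2 and SDC4 were low, the fibroblast sum was 1137 to 2172, against 2414 to 6182 at day 0. Of the 10 fibroblast markers 6 had lower and 4 higher means at day 1 than at day 0, with a median change of -0.25 and a range of -2.12 for TWIST1 to 0.57 for LUM, none past the test. The fibroblast sum was 2010 to 2898 at day 3. Its part in the SDC2 result was not tested.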

How the data were processed

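Total RNA of 14 biological samples was depleted of ribosomal RNA, amplified, biotinylated and hybridised, per the labels' protocols. The authors deposited gene-level intensity on a linear scale, with values from -0.273 to 30307.1 and 636 below 0. The build hg18 is named in the submitters' processing notes, and for background correction, summarisation and normalization the tools are not given in the sources used. From the deposited values log2(intensity + 1) was computed, which is defined for each value. Technical replicates were averaged. An array has no read depth, so the number of arrays limits precision.

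All 4 days were fitted together in limma 3.58.1 (lmFit, eBayes; R 4.3.3), with day as the only term (10 residual and 3 prior degrees of freedom), and p-values were adjusted by Benjamini-Hochberg over 18495 probe sets at a threshold of 0.05. The code was tested on simulated data. Fold changes are on the log2(value + 1) scale, which understates changes of dim genes. The members, lists and tests were chosen with earlier results of these data known. Of 165 genes on the pathway and marker lists 140 were measured on a probe set with a single symbol. Some genes are on more than 1 list. Named list genes are up to 3 with the largest change past the test at day 5, or the 2 largest where none passed, of which a selection is given. MMP16, SDCBP, CD44, SULF1 and TWIST1 were named after their values were seen. Alternatives were each sample left out, the replicate number as a block, other treatments of the technical replicates, a fit of just the compared days, median centring, quantile normalization, the dimmest 25% of probe sets left out, trend and robust variances, array weights, a pseudocount of 16 and a threshold of 0.01. Leaving out replicate 2 of days 3 and 5 together was added after seeing the data. Sequences are from RefSeq.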

Additional observations from a re-analysis of the deposited data

Results flagged for a closer look

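In 4 of the 20 groups of 4 samples, 1 sample stood apart from the others, where chance marks about 1 in 20 groups. The gap to the nearest sample, as a share of the whole range of the group, was 0.868 for SDC2 at day 0, where replicate 4 was high at 11.79. It was 0.924 for SDC3 at day 0, where replicate 4 was again the high one at 9.54. At day 5 replicate 2 was the low sample for SDC4, at 10.34 with a share of 0.907, and for GPC2, at 5.67 with a share of 0.869.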

How the results depend on the processing

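Of 969 recomputed changes (36 member changes under 27 alternatives), 898 kept their direction and their side of the threshold, 17 lost the call, 14 gained it and 40 changed sign, none of these past the test. The cause of the changes was not tested. The fall of SDC1 at day 5 held in all 27. The number of members past the F test, 2 with all samples, was 7 with array weights, whose estimate did not converge fully, 5 with replicate 2 of days 3 and 5 left out, 1 at a threshold of 0.01 and 2 to 3 with each sample left out. At day 1 against day 0 the count of 0 became 2 with array weights, 1 without both replicates 2, and 0 to 1 with each sample left out. At day 3 against day 1 the count of 1 became 6 with array weights, 4 without both replicates 2, and 0 with all 16 arrays, technical replicate 2 only, only the groups compared or a threshold of 0.01, with a range of 0 to 3 over samples left out. With array weights the count was 1 at day 3 against day 0, 2 at day 5 against day 0 and 1 at day 5 against day 3. The 2 heparan sulfate genes at day 5 became 8 with array weights, 6 without both replicates 2, 1 with all 16 arrays or without the dimmest 25%, 0 at a threshold of 0.01, and 1 to 4 with each sample left out. Shares of all probe sets past the tests with array weights or without both replicates 2 are not given here. Those counts can therefore not be set against a background. Replicate numbers paired the samples only in part. Of 19 same-numbered pairs, 10 had a correlation of deviations over 0.1 (range -0.28 to 0.65). Of 14 samples, 6 correlated best with their own number. Between days 3 and 5 the correlation was 0.65 for replicate 2, 0.56 for replicate 3 and -0.14 for replicate 1. Unlike numbers also correlated, with 0.52 for day 3 replicate 1 and day 5 replicate 4. With the replicate block the count at day 3 against day 1 was 0, SDC2 had an adjusted p of 0.0652, and GPC1, GPC3 and SDC4 at day 3 against day 0 turned to 0.133, -0.0537 and 0.0643. The other sign changes against day 0 were, with array weights, 0.52 for GPC1, 0.17 for GPC2, 0.40 for GPC4, 0.059 for GPC6 and 0.0425 for SDC4 at day 3, and 0.16 for GPC4 and -0.11 for SDC2 at day 5. Without both replicates 2 they were 0.49 for GPC1, 0.33 for GPC2, 0.51 for GPC4, 0.20 for GPC6 and 0.22 for SDC4 at day 3, and 0.0889 for GPC4 at day 5. With technical replicate 1 only GPC1 at day 3 was 0.0097. With each sample left out, the ranges that crossed 0 were, at day 1, -0.069 to 0.70 for GPC3 and -0.0485 to 0.22 for GPC6. At day 3 they were -0.34 to 0.49 for GPC1, -1.91 to 0.33 for GPC2, -0.13 to 0.64 for GPC3, -0.65 to 0.51 for GPC4, -0.60 to 0.20 for GPC6, -0.38 to 0.86 for SDC3 and -0.37 to 0.22 for SDC4. At day 5 they were -0.67 to 0.0889 for GPC4, -0.0251 to 0.36 for GPC6, -0.10 to 0.20 for SDC2 and -0.11 to 0.25 for SDC3. Averaging several probe sets of a gene was not run, since each member has 1, and GPC5 was not tested without the dimmest probe sets.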
